A study of Mus musculus with 2 samples.

Results

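The neurotrophins, GDNF and their receptors were followed through the transcriptomes of WT and β-arr1 KO astrocytes. The 9 genes were chosen by name: the ligands Bdnf, Ntf3, Ntf5 and Gdnf and the receptors Ntrk2, Ntrk3, Ngfr, Sort1 and Gfra1. They were 9 of 16302 genes in the joined expression tables, and each of them was listed in both libraries. The choice did not use their values, but it was made with earlier results of these data known. No count over the members is therefore independent support. The cells came from the dentate gyrus (DG) of the adult hippocampus and were grown in medium with serum, then shaken to detach proliferating cells, oligodendrocyte progenitors and neurons. The WT library was from C57BL/6 mice with intact Arrb1, and the KO library was from Beta-arr1 knockout mice of the same labelled strain, in which the gene is disrupted in every cell and not in astrocytes alone. No agent was given to either group, and the ages and sexes of the mice were not given in the sources used here. The cDNA was pooled and sequenced as 1 library per genotype, so no difference between the libraries could be set against a spread between replicates and no test of genotype was possible.

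Neurotrophins are made as precursors and are cut to mature ligands by proprotein convertases inside the cell or by proteases outside it. Mature ligands act through Trk receptor tyrosine kinases, TrkB (Ntrk2) for Bdnf and Ntf5 and TrkC (Ntrk3) mainly for Ntf3, whereas the p75 neurotrophin receptor (Ngfr) together with sortilin (Sort1) binds the uncut precursors. GDNF binds GFRα1 (Gfra1) on the cell surface, and this pair signals through the receptor kinase Ret. In the adult hippocampus Bdnf is known as a factor that supports neurogenesis and synaptic plasticity, and astrocytes are known to carry mostly a truncated form of TrkB that lacks the kinase domain.

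Of the members, 3 are shown with sequence: Ntrk2 and Gfra1, the analysed receptors with the highest ratios of KO vs. WT, and Bdnf, the ligand of TrkB and the member with the highest level in WT. Each stretch is the 250 bases before an annotated transcript start that overlaps no annotated exon of the gene, read from mouse genome build NCBIM37 (the same assembly as mm9) on the strand of the gene, 5′ to 3′. Capitals mark the letters CGTCA or, on the opposite strand, TGACG, the core of the cAMP response element (CRE) that CREB family factors bind.
Ntrk2, chr13:58907707-58907956 (plus strand): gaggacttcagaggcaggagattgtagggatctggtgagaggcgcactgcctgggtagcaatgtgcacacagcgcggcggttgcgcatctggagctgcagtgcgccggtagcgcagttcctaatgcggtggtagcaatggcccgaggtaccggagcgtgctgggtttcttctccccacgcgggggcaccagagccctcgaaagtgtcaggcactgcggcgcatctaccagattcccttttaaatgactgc
Bdnf, chr2:109532343-109532592 (plus strand): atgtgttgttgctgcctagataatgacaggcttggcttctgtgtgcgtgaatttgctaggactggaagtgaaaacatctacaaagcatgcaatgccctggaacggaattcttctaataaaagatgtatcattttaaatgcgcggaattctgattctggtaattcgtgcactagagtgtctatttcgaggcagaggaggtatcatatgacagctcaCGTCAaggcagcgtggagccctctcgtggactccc
Gfra1, chr19:58530400-58530649 (minus strand): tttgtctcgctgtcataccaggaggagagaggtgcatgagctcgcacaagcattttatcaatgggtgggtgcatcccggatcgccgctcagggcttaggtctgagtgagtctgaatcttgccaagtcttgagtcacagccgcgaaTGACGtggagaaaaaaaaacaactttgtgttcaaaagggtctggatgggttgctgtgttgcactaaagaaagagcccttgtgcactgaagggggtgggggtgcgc
The CRE core was found on either strand at 9195 of 46013 coding transcript starts of the annotation, or 20.0%. The stretch printed for Ntrk2 is that before its first start, at position 58907957, and holds no such letters, but other Ntrk2 starts and the count over all members are not reported here, so this says nothing of Ntrk2 as a whole. At Bdnf the core stood 35 bases before the start at position 109532593, the one shown for that reason, and at 1 of the 7 Bdnf starts in all. At Gfra1 it was found at 2 of 9 starts, 105 bases before the outermost start, at position 58530399, which lies outside the row of Gfra1 in both tables, and 84 bases before an inner start at position 58529496, which is not printed because most of its window is exon. The full CRE, TGACGTCA, was found at 1.87% of all starts and at 0 member starts. The E-box CACGTG was found at 6.62% of all starts and at 1 member start, 231 bases before that of Ntf3. These are matches of letters, counted with both strands searched, and the short motif is part of the full one.

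Each library was represented by an FPKM value per gene (fragments scaled by transcript length and by the mapped fragments of the library), so levels can be compared between genes. Depth was estimated from the smallest values, which lie on steps of 1 to 3 fragments, at 9.54 M fragments in WT and 9.82 M in KO. From this depth, the estimated fragments of each gene gave an exact Poisson 95% interval for its level and an exact Clopper-Pearson 95% interval for its ratio of KO vs. WT. These intervals cover counting error only. Genes that reached 1 FPKM in WT, in KO or in both were analysed, and such a gene was counted as higher or lower in KO when its ratio was above 3/2 or below 2/3, the limits of the study. Arrb1, the targeted gene, had 7.62 and 2.72 FPKM, with a ratio of 0.358 (0.301 to 0.424). Markers of the labelled cell type were found: Gfap, the astrocyte filament protein, had 189 and 192 FPKM, and 11 of 12 astrocyte markers reached the 1 FPKM needed to be analysed. Markers of other cell types were found too. The fibroblast and meningeal list summed to 3141 and 2047 FPKM, beside 404 and 431 FPKM for the astrocyte list. Most of the former was 1 gene, Fn1, with 2490 and 1700 FPKM. The pericyte and smooth muscle list summed to 5735 and 5400 FPKM, mostly from Acta2 (2478 and 2469 FPKM) and Tagln (2915 and 2597 FPKM). Such sums do not give the share of cells of a type. The 4 Y-linked genes looked for were listed in KO, with a sum of 8.44 FPKM, and 0 of them in WT, so that genotype and the sex of the animals cannot be told apart in any comparison here.

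The receptors Ntrk2 and Gfra1 were higher in the KO library, and no analysed member was below 2/3. The ratios of the ligands Bdnf and Gdnf were within the limits, but the interval of Gdnf (0.872 to 1.70) reached past 3/2. Of the 9 members, 7 were analysed, and 3 of these were above 3/2 (Ntrk2, Gfra1 and Ntf3), 0 below 2/3 and 4 between. Over all 12646 analysed genes, 9.56% were above 3/2, 8.26% below 2/3 and 17.8% past either limit. The median log2((KO + 0.1)/(WT + 0.1)) was 0.27 over the 7 analysed members, beside 0.02 over all analysed genes. Of the 7 analysed members, 6 had the higher value in KO, where 53.0% of all analysed genes did. The counting interval of the ratio left out 1 for 3 members (Ntrk2, Gfra1 and Sort1).

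**Figure D1:**
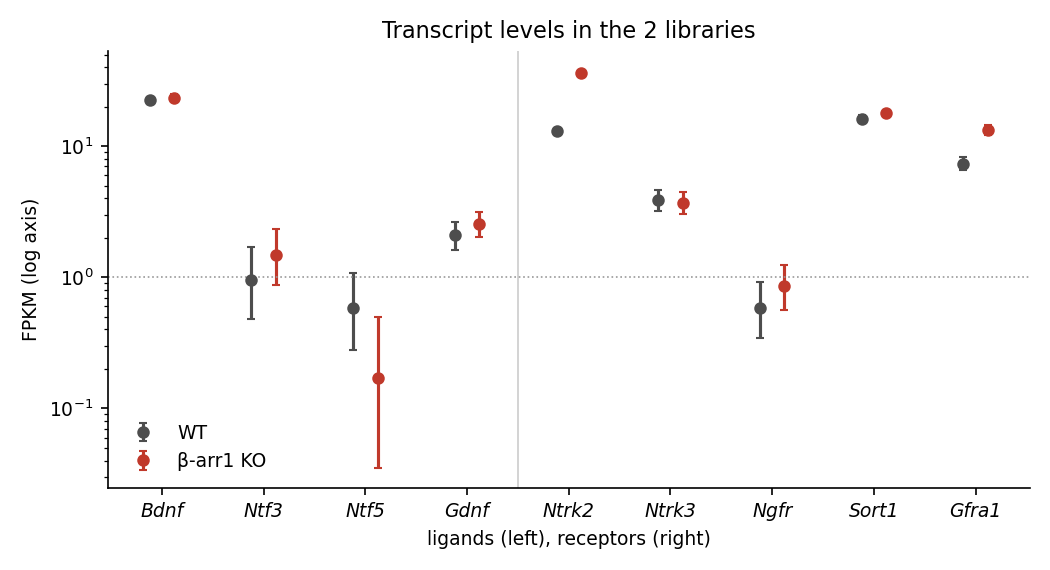
FPKM of the 4 ligands and 5 receptors in the WT (grey) and β-arr1 KO (red) library on a log axis, with exact Poisson 95% counting intervals as bars; the dotted line is at 1 FPKM. Ntrk2 moved from 13.0 to 36.4 FPKM and Gfra1 from 7.37 to 13.3 FPKM with intervals that did not overlap, while the points of Bdnf lay at 22.3 and 23.4 FPKM.

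Among the ligands, Bdnf was by far the most abundant. It had 22.3 FPKM (20.9 to 23.9) in WT and 23.4 FPKM (21.9 to 24.9) in KO, from an estimated 872 and 940 fragments. It exceeded 78.4% of the listed genes in WT and 79.0% in KO, and its quotient to Gdnf was 10.7 in WT and 9.17 in KO. The ratio of Bdnf was 1.05, and its interval of 0.954 to 1.15 held 1 and lay wholly within the limits. Its locus spans chr2:109514857-109567200 on the plus strand, where the annotation has 10 coding transcripts that begin at several separate 5′ exons and share the last exon, so the single value sums over all of these starts.

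Gdnf, a ligand of the GDNF family known to support dopaminergic and motor neurons, was a minor transcript. It had 2.10 FPKM (1.62 to 2.66) in WT and 2.55 FPKM (2.03 to 3.16) in KO, a ratio of 1.22 (0.872 to 1.70) from 67 and 84 estimated fragments. The intervals of the 2 libraries overlapped, and the upper bound of the ratio lay above 3/2, so this depth could not separate a ratio of 1 from one past the limit. Its row lies at chr15:7761011-7787575 in WT and begins slightly further upstream in KO.

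Ntf3 and Ntf5 were at the edge of detection. Ntf3, which acts mainly through TrkC, had 0.956 FPKM (0.477 to 1.71) in WT and 1.47 FPKM (0.874 to 2.33) in KO. Its ratio of 1.54 was past 3/2, but it rested on 11 and 18 estimated fragments and its interval of 0.690 to 3.61 held 1. Among the 1734 genes with a mean level within a factor of 2 of its own, 24.4% were above 3/2, so a ratio of this size was common at this level. Ntf5, the second ligand of TrkB, had 0.585 FPKM (0.280 to 1.08) in WT and 0.170 FPKM (0.0351 to 0.498) in KO, from 10 and 3 estimated fragments. It stayed under 1 FPKM in both libraries and was not analysed, and its ratio of 0.292 had an interval of 0.0516 to 1.13. For both genes the values of the libraries were not separated.

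Ntrk2, which encodes TrkB, had the highest ratio of KO vs. WT of the 9 genes. It had 13.0 FPKM (12.3 to 13.9) in WT and 36.4 FPKM (35.1 to 37.7) in KO, from 1042 and 2988 estimated fragments. The ratio was 2.79 (2.60 to 2.99), a log2 difference of 1.48. The value in KO was thus clear of that in WT by far more than counting error, and the gene moved from rank 5353 to rank 2011 among listed genes, from above 65.2% of them to above 87.0%. A ratio at least as high was found in 394 of the 12646 analysed genes (3.12%), and in 54 of the 4160 genes with a mean level within a factor of 2 of that of Ntrk2, of which 4.76% were above 3/2. With the fragments estimated from the shortest coding transcript the interval was 2.45 to 3.18.

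The Ntrk2 row had the same bounds in both tables, chr13:58907957-59231328 on the plus strand, and no other row overlapped it, so the same region was counted in both libraries. The annotation holds 5 coding transcripts there, some reaching the exons at the far end that encode the tyrosine kinase domain and others ending before them. The deposited value is a single sum, and the share of full-length and truncated TrkB in either library cannot be told from it.

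Gfra1, the GPI-anchored receptor that presents GDNF to Ret, was the second receptor past the limits. It had 7.37 FPKM (6.57 to 8.23) in WT and 13.3 FPKM (12.2 to 14.4) in KO, from 314 and 583 estimated fragments, and the intervals did not overlap. The ratio was 1.80 (1.57 to 2.07), a log2 difference of 0.85. A ratio at least as high was found in 750 analysed genes (5.93%), and in 192 of the 5261 genes at a similar level. The row lies on the minus strand at chr19:58310118-58529721 in WT and chr19:58310182-58529988 in KO, so its bounds differed slightly between the tables. If all fragments came from the shortest coding model, a fragment of the gene with 349 bases, only 13 and 23 fragments would stand behind the ratio and its interval would be 0.876 to 3.87, which holds 1.

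The remaining receptors were within the limits or too low to be analysed. Sort1, which encodes sortilin, a sorting receptor for precursor neurotrophins, had 16.2 FPKM (15.2 to 17.2) in WT and 17.9 FPKM (16.9 to 19.0) in KO. Its ratio of 1.11 (1.02 to 1.21) left out 1 by counting error, yet it lay within the limits, and with the shortest coding transcript the interval was 0.923 to 1.33. Ntrk3, which encodes TrkC, had 3.86 FPKM (3.19 to 4.64) in WT and 3.71 FPKM (3.06 to 4.45) in KO. The ratio of Ntrk3 was 0.959 (0.734 to 1.25), so a difference past either limit lay outside its counting interval. Ngfr, the p75 receptor, had 0.584 FPKM (0.346 to 0.923) in WT and 0.852 FPKM (0.561 to 1.24) in KO, from 18 and 27 estimated fragments. It was under 1 FPKM in both libraries, and its ratio of 1.46 had an interval of 0.775 to 2.81.

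**Figure D2:**
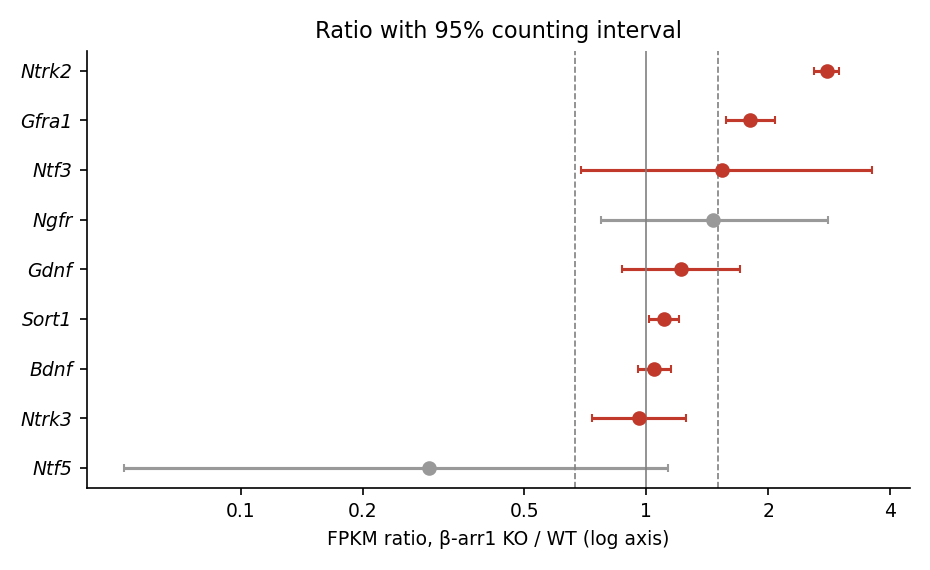
Ratio of FPKM in KO to FPKM in WT for the 9 genes on a log axis, with exact 95% counting intervals; the solid line is at 1, the dashed lines are at 2/3 and 3/2, and grey marks the 2 genes under 1 FPKM in both libraries. The intervals of Ntrk2 (2.60 to 2.99) and Gfra1 (1.57 to 2.07) lay wholly above 3/2, and that of Ntf3 (0.690 to 3.61) held 1.

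The order of the levels differed between the libraries at the top. In WT it ran from Bdnf through Sort1, Ntrk2, Gfra1, Ntrk3, Gdnf, Ntf3 and Ntf5 to Ngfr. In KO it ran from Ntrk2 through Bdnf, Sort1, Gfra1, Ntrk3, Gdnf, Ntf3 and Ngfr to Ntf5. Neighbours whose counting intervals overlapped, and which were therefore not separated, were Gdnf and Ntf3, Ntf3 and Ntf5, and Ntf5 and Ngfr in WT, and Ntrk3 and Gdnf, Gdnf and Ntf3, and Ntf3 and Ngfr in KO. The other 10 of 16 neighbouring pairs were separated, a number that fell to 6 when fragments were estimated from the shortest coding transcripts.

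The quotients of receptor to ligand transcripts differed between the libraries. TrkB transcripts were less abundant than those of Bdnf in WT, at a quotient of 0.584, and more abundant in KO, at a quotient of 1.55. The quotient of Gfra1 to Gdnf was 3.51 in WT and 5.21 in KO, and that of Gfra1 to Ret was 1.64 and 1.93. Ntrk2 exceeded Ntrk3 by a factor of 3.38 in WT and of 9.80 in KO. The quotient of Ntrk3 to Ntf3 was 4.04 in WT and 2.51 in KO, but the few fragments of Ntf3 leave it imprecise.

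**Figure D3:**
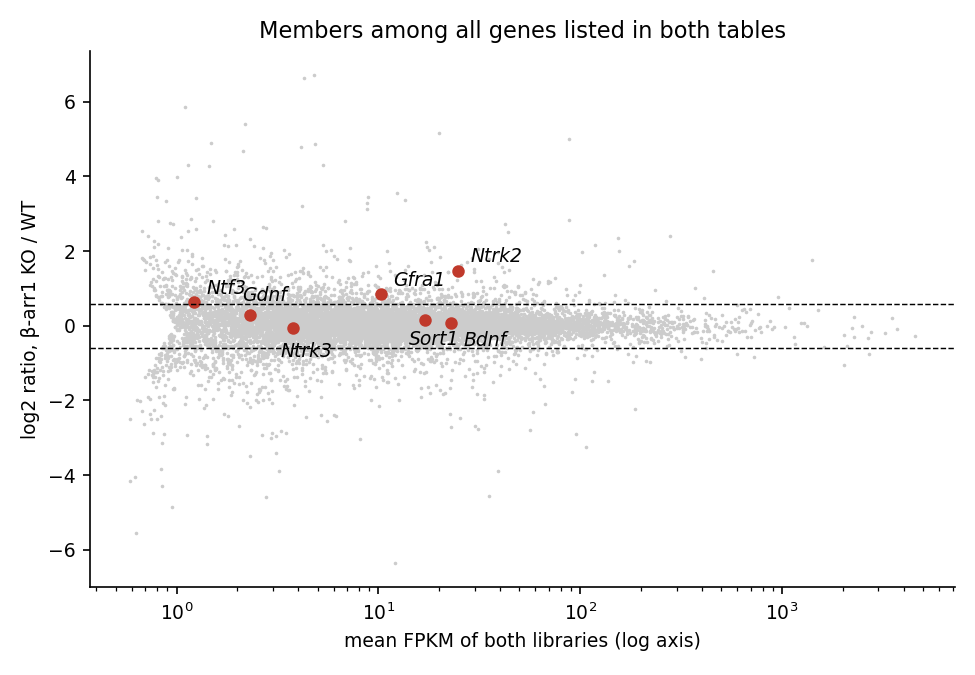
Log2 ratio of KO to WT against the mean FPKM of both libraries (log axis) for the 12171 analysed genes listed in both tables (grey), with the 7 analysed members in red; dashed lines mark the limits 3/2 and 2/3. Ntrk2 stood at the upper margin of the genes of its level, whereas Ntf3 lay where the values scatter widely.

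The members shared terms in the gene ontology text deposited with the tables. Because they were chosen by name as ligands and receptors of these families, such sharing follows from the choice and is no separate result. The term nervous system development was given to 6 of the 9 and to 268 listed genes in all, and mechanoreceptor differentiation to 5 of the 9 and to 7 listed genes in all. The 4 ligands carried growth factor activity, and the 5 receptors carried plasma membrane.

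The other genes of the pathway, 96 in 6 lists, were near the background as a whole. Of them 92 were listed and 87 analysed, and 8 were above 3/2 and 8 below 2/3, which is 9.20% in each direction and 18.4% in all, beside 9.56%, 8.26% and 17.8% over all analysed genes. In the lists of other ligands and receptors, precursor cleavage, receptor cleavage, Trk and Ret adaptors, p75 partners and Bdnf gene regulators, the medians of the log2 ratio were -0.11, -0.01, -0.02, -0.05, 0.22 and 0.08.

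Among the other ligands and receptors, 17 genes of which 13 were analysed, 1 was higher and 4 were lower in KO. Ret, the kinase through which GDNF and GFRα1 signal, had 4.49 and 6.87 FPKM in WT and KO, a ratio of 1.53 (1.32 to 1.77). The interval of Ret left out 1 but reached to either side of 3/2. Gfra4, the GDNF family receptor for persephin, was lower, at 2.92 and 0.810 FPKM, a ratio of 0.278 (0.137 to 0.524). Gas1, a surface protein related to the GFRα receptors, had 9.59 and 6.27 FPKM, a ratio of 0.653 (0.535 to 0.796). Manf, a secreted factor of the endoplasmic reticulum with the highest mean of both libraries in this list, had 168 and 60.1 FPKM, a ratio of 0.356 (0.334 to 0.381). Its row overlapped that of Vprbp in WT. Pspn, which encodes persephin, was the other gene below 2/3, with 1.38 and 0.331 FPKM, and is named for completeness although it is under the 2 FPKM set for naming.

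Genes that cut the precursors differed in both directions. Of 13 genes, 10 were listed and 9 analysed, 2 of them higher and 2 lower in KO. The proprotein convertase Pcsk6 had 26.8 and 56.1 FPKM, a ratio of 2.10 (1.95 to 2.26). The convertases Pcsk5 and Pcsk2 were lower, with 4.28 and 1.07 FPKM for Pcsk5, a ratio of 0.250 (0.187 to 0.331), and 2.24 and 0.491 FPKM for Pcsk2, a ratio of 0.219 (0.131 to 0.350). Mmp3, a matrix metalloprotease, was listed in KO only, at 5.23 FPKM or 84 estimated fragments. The proteases that cut the receptors themselves had no gene past the limits among 8 analysed, and their most abundant member, the γ-secretase subunit Ncstn, had 88.7 and 86.7 FPKM with a row that overlapped that of Copa.

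Among the adaptors of Trk and Ret receptors, 23 of 25 analysed genes lay within the limits. Shc3, an adaptor of the Shc family found mainly in neural cells, had 4.20 and 7.51 FPKM, a ratio of 1.79 (1.27 to 2.53). Grb10, an adaptor of receptor tyrosine kinases and an imprinted gene, had 61.5 and 31.8 FPKM, a ratio of 0.517 (0.485 to 0.550). Crk, the adaptor with the highest mean of both libraries, had 57.6 and 62.6 FPKM.

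Of the 14 partners of p75, all analysed, 2 were higher and 0 lower. Rtn4, which encodes the myelin inhibitor Nogo and has the highest mean of the list, had 247 and 497 FPKM, a ratio of 2.01 (1.96 to 2.06). Bex1, an adaptor of p75 signalling, had 22.7 and 43.3 FPKM, a ratio of 1.91 (1.56 to 2.34), but its row overlapped those of neighbouring genes and its value is uncertain.

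Of the 18 regulators of the Bdnf gene, all analysed, 2 were higher and 1 lower, beside the Bdnf ratio of 1.05. Npas4, an activity-dependent transcription factor, had 1.15 and 4.05 FPKM, a ratio of 3.53 (2.40 to 5.33), with a row that reached further in KO. Mef2c had 4.81 and 7.44 FPKM, a ratio of 1.55 (1.33 to 1.80). Crtc2, a coactivator of CREB, had 98.5 and 14.3 FPKM, a ratio of 0.145 (0.130 to 0.161). The Crtc2 row began at position 90035519 of chromosome 3 in WT and at position 90058195 in KO, and in WT it overlapped that of Creb3l4, so the values cover different regions and the intervals do not hold that difference.

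**Figure D4:**
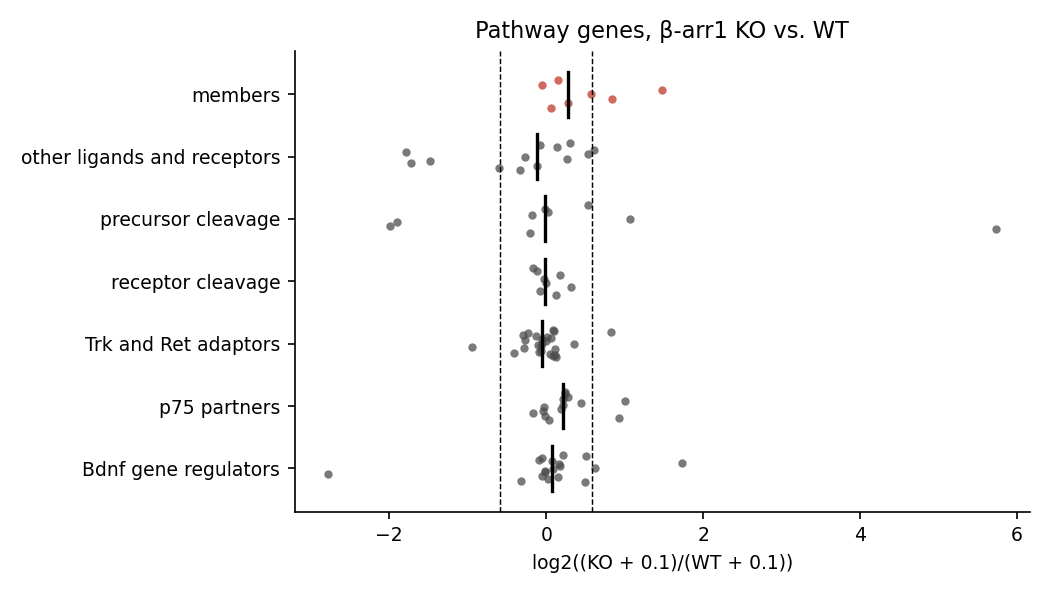
Log2((KO + 0.1)/(WT + 0.1)) of each analysed gene of the members (red) and of the 6 pathway lists (grey), with the median of each list as a black bar and the limits 3/2 and 2/3 as dashed lines. The bar of the members stood at 0.27 and those of the pathway lists between -0.11 and 0.22, with Mmp3, which the WT table does not list and which was set to 0 there, at the far right.

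Markers of several cell types also differed between the libraries, some lists toward higher and others toward lower values in KO. In bulk RNA, fewer cells of a type and less RNA per cell cannot be told apart. Of the 11 analysed astrocyte markers 4 were higher and 0 lower (Aqp4, Slc1a2, S100b and Aldoc), their list summed to 404 FPKM in WT and to 431 FPKM in KO, and Gjb6 was at 0 in WT. S100b, the marker by which the culture was judged, had 29.3 and 51.7 FPKM, and Aqp4, the water channel of astrocyte endfeet, had 7.05 and 13.5 FPKM. The S100b row overlapped that of Dip2a in WT and began at a different position in KO. The analysed astrocyte markers with the lower value in KO were Glul, with 83.3 and 61.8 FPKM, and Gja1, with 34.0 and 29.4 FPKM. Their ratios of 0.742 (0.694 to 0.792) and 0.862 (0.785 to 0.947) lay within the limits. Of 8 analysed oligodendrocyte and precursor markers 4 were higher and 0 lower, with sums of 107 and 153 FPKM and Mog at 0 in WT. Of 10 analysed fibroblast and meningeal markers 1 was higher and 6 were lower, with sums of 3141 and 2047 FPKM, Slc6a13 at 0 in WT and Lum at 0 in KO. Of 8 analysed skeletal muscle markers 7 were higher and 0 lower, with sums of 39.1 and 166 FPKM, Myh8, Tnnc2 and Myod1 at 0 in WT and Myh1 and Myh3 at 0 in KO. The Myh8 row in KO, at 23.4 FPKM, ran from position 66891802 to 67185004 and covered the places of the WT rows of Myh1 and Myh3. The zeros of these myosin genes may therefore reflect how rows were drawn rather than absent transcripts, which was not tested.

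The other marker lists shifted less or in mixed directions. Of the 12 analysed microglia and macrophage markers 0 were higher and 1 lower, with sums of 1065 and 827 FPKM. Neuron markers had 5 analysed genes, 0 of them past the limits, with sums of 97.2 and 120 FPKM, Dcx and Gad2 at 0 in WT and Nefl at 0 in KO. Endothelial markers had 2 higher and 1 lower of 9 (95.6 and 95.2 FPKM), and pericyte and smooth muscle markers 0 and 1 of 6 (5735 and 5400 FPKM). Schwann cell markers had 1 higher and 1 lower of 8 (105 and 108 FPKM, Foxd3 at 0 in KO). Ependymal and choroid plexus markers had 2 higher and 3 lower of 6 (107 and 52.2 FPKM, Tmem212 at 0 in WT). The lower ones were Ttr, with 23.8 and 0.290 FPKM, Folr1, with 53.1 and 13.6 FPKM, and Otx2, with 6.42 and 2.29 FPKM. The Folr1 row began at a different position in KO. The higher ones were Foxj1, with 14.7 and 24.4 FPKM, and Rsph1, with 4.86 and 7.58 FPKM. The part of these differences in the values of Ntrk2, Gfra1 and the other members was not tested.

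**Figure D5:**
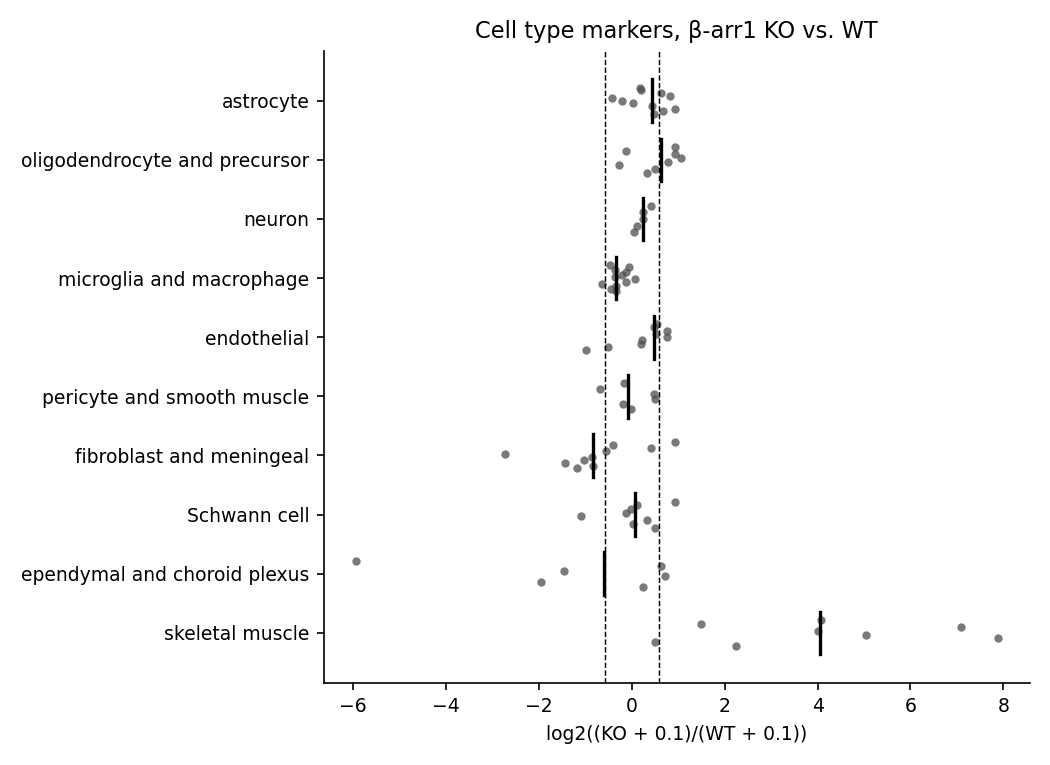
Log2((KO + 0.1)/(WT + 0.1)) of each analysed gene of 10 cell type marker lists, with medians as black bars and the limits 3/2 and 2/3 as dashed lines. The medians ran from -0.84 for fibroblast and meningeal markers to 4.04 for skeletal muscle markers, with 0.45 for astrocyte markers.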

How the data were processed

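DG astrocytes of both genotypes were profiled by RNA-seq. According to the methods of the study and the submitters' processing notes, the authors acquired paired reads of 100 bases, aligned them to mm9 with TopHat 1.4.0 and ran Cufflinks, and they deposited 1 table per library of FPKM values, a unit that accounts for the length of the transcript and the size of the library. Read counts and confidence bounds were not used here. Tables were joined by gene symbol, with the first row of a repeated symbol used, and 0 stood for a gene that a table did not list. Ratios took the FPKM values as deposited, and only the medians of gene lists used a pseudocount, 0.1. Where no aligner or caller setting is named, it is not given in the sources used here.

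Depth was estimated from genes under 0.15 FPKM with 1 annotated transcript of at least 1000 bases (417 in WT and 436 in KO, of which 69.3% and 70.0% lay within 5% of a step). It was taken with a length allowance of 170 bases, and fragments per gene follow from the longest transcript in GENCODE for NCBIM37. Reads shared between genes and differences in row bounds are not covered by the intervals. The script was tested on simulated data. With 1 library per genotype no p-value was computed.

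The members and the gene lists were chosen with earlier results of these data known, so no count over them is independent support. The genes named were every member, Arrb1 and, of each pathway list, the gene of highest mean FPKM and each gene past the limits with at least 2 FPKM in the higher library, and no most similar genes were named because 2 libraries give no pattern. Not every gene or sequence that qualifies is reported here. Alternatives were other minimum levels, pseudocounts, rescalings and limits, summed rows and shorter transcripts. Deposited starts were raised by 1. Scripts ran in Python 3.11.15 (scipy 1.17.1, numpy 2.4.6, pandas 2.3.3), and plots were drawn with matplotlib 3.10.9.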

Additional observations from a re-analysis of the deposited data

How the results depend on the processing

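With limits of 2 and 1/2, 1 of 7 analysed members (Ntrk2) was past them, as were 10 of 87 pathway genes and 1163 of all 12646 analysed genes. The number of all genes past the limits was 3965 at a minimum of 0.1 FPKM, 1177 at 5 FPKM and 1370 at 1 FPKM in both libraries. The number of members past them was 4, 2 and 2 in the same order. Each minimum also changes how many genes are analysed, so these counts are not shares and give no background for the members. The number of separated neighbours in the order of levels fell from 10 to 6 of 16 with the shortest coding transcripts, which give fewer fragments. Ntf3 lay within the limits with a pseudocount of 0.1 or 1, and over the pseudocounts and 3 rescalings its ratio ran from 1.26 to 1.55, that of Ntrk2 from 2.66 to 2.79 and that of Gfra1 from 1.71 to 1.81. The 45 member ratios under these 5 settings all lay inside the counting intervals, and no ratio changed its direction. The rescalings divided the KO values by 0.997 to 1.01. No paired analysis was possible because each genotype has 1 library. Depth limits Ntf3, Ntf5 and Ngfr most, with under 30 estimated fragments per library.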

Other observations

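The deposited annotation text gave a term that names a neurotrophic factor, a neurotrophin or GDNF to 24 further listed genes, of which 20 were analysed. Of these 2 were higher in KO, 3 were lower and 15 lay between the limits, and the median of their log2((KO + 0.1)/(WT + 0.1)) was -0.08. The genes past the limits are named after their values were seen. Clcf1, a ligand of the cytokine receptor that also serves ciliary neurotrophic factor, had 42.3 and 96.8 FPKM in WT and KO, a ratio of 2.29. Cd34, a surface sialomucin of endothelial and progenitor cells, had 43.4 and 77.5 FPKM, a ratio of 1.79. Lifr, a signalling subunit of that cytokine receptor, had 2.06 and 1.16 FPKM, a ratio of 0.563. Gfra4 was lower as given above, and Fam72a had 1.52 FPKM in WT and was not listed in KO.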
